A study of Mus musculus with 3 samples.

Results

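The mir-17 to mir-92a polycistron is a run of 6 microRNA hairpins on mouse chromosome 14, read as one transcript from the host gene Mir17hg. Its members were taken by name from the deposited window table, as every microRNA (miR) and microRNA-offset RNA (moR) window whose name stem was mmu-miR-17, mmu-miR-18a, mmu-miR-19a, mmu-miR-20a, mmu-miR-19b or mmu-miR-92a. The prefix for mouse is left out from here on. This gave 28 of the 2590 windows, 14 for miRs and 14 for moRs. The chromosome 14 hairpins held 24 of them, and the remaining 4 belonged to the second genomic copies of miR-19b-3p and miR-92a-3p on chromosome X, which are given apart.

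The series holds 3 small RNA libraries made from primary aortic smooth muscle cells (AoSMC) of C57BL/6 mice. The cells grew out of pieces of several aortas, were kept in medium with 10% FBS, and were taken when nearly confluent with no treatment labelled. The study's methods also describe growth in charcoal-treated serum before experiments, and whether these libraries had that step is not stated. The libraries form 1 group called biological replicates, with no statement of separate dishes or animals, so a p-value here reflects no more than how far these samples spread, and that spread could be technical. Every comparison therefore set one kind of RNA against another within the same libraries. Between 12546339 and 15175671 reads per library fell in miR and moR windows, which was 73.1%, 83.0% and 81.9% of the mapped reads of replicates 1, 2 and 3.

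In mammals the transcript of Mir17hg is cut by Drosha into separate hairpins, and Dicer then releases a miR from the 5p or the 3p arm of each. The cluster is known as an oncogenic, growth-promoting microRNA cluster under the control of Myc and E2F, and its miRs fall into the miR-17, miR-18, miR-19 and miR-92 seed families. A moR is a short RNA from the foot of the hairpin, directly outside the miR. The seed, bases 2 to 8 of a miR counted from its 5′ end, is the main determinant of target recognition.

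The labelled cell type was compared with marker miRs. The smooth muscle pair miR-143-3p and miR-145a-5p summed to between 47412 and 57626 RPMR, where RPMR is reads per 1000000 reads that a library has in such windows. The endothelial pair miR-126a-3p and miR-126a-5p summed to between 125 and 158 RPMR. The 4 blood markers (miR-142a-3p, miR-142a-5p, miR-223-3p and miR-451a) stayed between 0.513 and 0.923 RPMR, the 4 epithelial ones between 6.93 and 7.63 RPMR, and the liver marker miR-122-5p between 1.47 and 1.75 RPMR. Of the 3 striated muscle markers only miR-206-3p passed 10 RPMR, at 138 ± 19.2 RPMR (SD, n = 3).

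In GENCODE M21 (mm10), Mir17hg is a lincRNA on the plus strand at chr14:115042879-115046727. Its exon 1 spans chr14:115042879-115042957 and its exon 2 spans chr14:115043271-115046727. All 6 hairpins lie inside exon 2. They follow each other as Mir17 (chr14:115043671-115043754), Mir18 (chr14:115043851-115043946), Mir19a (chr14:115044000-115044081), Mir20a (chr14:115044157-115044263), Mir19b-1 (chr14:115044305-115044391) and Mir92-1 (chr14:115044427-115044506), with 96, 53, 75, 41 and 35 bases between neighbours. On chromosome X the hairpins Mir92-2 (chrX:52741838-52741928) and Mir19b-2 (chrX:52741983-52742066) lie on the minus strand in the paralog cluster mir-106a-363.

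The abundant mature miRs of the cluster are shown with the members of the paralog cluster mir-106b-25 on chromosome 5 that share their seeds, because the comparison within each family turns on these letters. Sequences are from RefSeq (GRCm38.p6), written 5′ to 3′ with the seed in capitals. RefSeq gave a sequence for 1049 of the 1230 mature names in the table and for 11 of the 12 member names.
miR-17-5p: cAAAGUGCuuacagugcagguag
miR-20a-5p: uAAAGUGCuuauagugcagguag
miR-93-5p: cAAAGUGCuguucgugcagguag
miR-106b-5p: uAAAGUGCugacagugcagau
miR-18a-5p: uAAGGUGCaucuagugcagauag
miR-19a-3p: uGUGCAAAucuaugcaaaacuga
miR-19b-3p: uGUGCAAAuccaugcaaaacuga
miR-92a-3p: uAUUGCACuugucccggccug
miR-25-3p: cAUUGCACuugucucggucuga

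With positions counted from 1 at the 5′ end and the first-named miR's base first, miR-17-5p and miR-20a-5p differ at C1U and C12U, and miR-19a-3p and miR-19b-3p at U11C alone. The authors mapped reads without mismatches, so a read that covers these positions goes to one of the miRs only. Between miR-17-5p and miR-93-5p the substitutions are U10G, A11U, C12U and A13C. Between miR-92a-3p and miR-25-3p they are U1C, C14U and C18U.

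The cluster made up a small part of the small RNA of these cells. The 12 miR windows on chromosome 14 summed to 4403, 4828 and 5971 RPMR in replicates 1, 2 and 3, a mean of 5067 ± 811 RPMR (SD, n = 3) or 0.507% of the window reads. Of this sum 3345 ± 777 RPMR came from the 10 windows whose reads are not shared with chromosome X. Replicate 3 was the highest and replicate 1 the lowest.

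Among 1230 mature names in the table, miR-92a-3p and miR-20a-5p ranked 37 and 38 by mean level. miR-92a-3p, known for restraining angiogenesis, measured 2481, 2045 and 2361 RPMR in replicates 1, 2 and 3 over both of its loci (2296 ± 225, SD, n = 3). miR-20a-5p, of the miR-17 family, measured 1456, 1910 and 2441 RPMR (1935 ± 493). The ranges of this pair overlapped, and miR-92a-3p was the higher in 2 of 3 libraries. miR-17-5p, the founding member of the miR-17 family, measured 781, 969 and 1285 RPMR (1012 ± 255, rank 54), below miR-20a-5p in each library.

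The miR-19 family followed. miR-19b-3p measured 558, 575 and 665 RPMR over both loci (599 ± 57.7, rank 69), and miR-19a-3p measured 203, 183 and 205 RPMR (197 ± 12.1, rank 113). miR-18a-5p was the least abundant of the miRs usually named for the cluster, at 93.7, 109 and 137 RPMR (113 ± 21.9, rank 139). From miR-20a-5p down, no neighbours in this order overlapped in range.

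The 6 miRs of the opposite arms were all rarer than these 6. miR-17-3p measured 53.0, 54.7 and 63.3 RPMR (57.0 ± 5.53) and miR-18a-3p measured 19.9, 18.9 and 20.8 RPMR (19.9 ± 0.967). miR-92a-1-5p averaged 7.97 ± 0.642 RPMR from 331 reads, miR-20a-3p averaged 2.28 ± 0.321 RPMR from 95 reads, and miR-19b-1-5p averaged 0.445 ± 0.159 RPMR from 18 reads. miR-19a-5p had a single read, in replicate 2, where 1 read is worth 0.0797 RPMR. Among windows counted at chromosome 14, reads over the 3 libraries ran from 1 for miR-19a-5p to 80849 for miR-20a-5p.

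**Figure D1:**
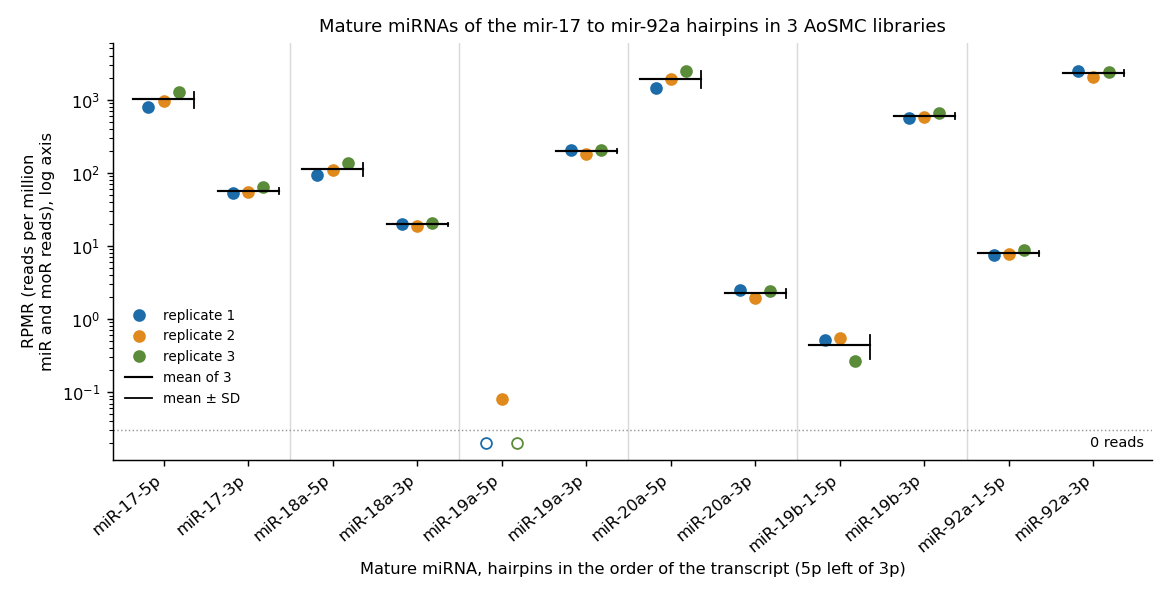
Level of the 12 mature miRNAs of the cluster in each library, in RPMR on a log axis, with hairpins in the order of the transcript and the 5p miR left of the 3p miR. Points are libraries, horizontal lines are means of 3 libraries with vertical lines of ± 1 SD, and open points below the dotted line had 0 reads. The abundant arm is 5p in Mir17, Mir18 and Mir20a and 3p in Mir19a, Mir19b-1 and Mir92-1.

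Which arm of each hairpin left the more abundant miR was tested within libraries for every hairpin with a miR on both arms. The abundant arm split the cluster by seed family, 5p for the miR-17 and miR-18 families and 3p for the miR-19 and miR-92 families. All 6 chromosome 14 hairpins were called, 3 with more 5p and 3 with more 3p, by edgeR's quasi-likelihood test with Benjamini-Hochberg adjustment over 373 hairpins. Of these 373 hairpins 86.3% were called, 42.9% with more 5p and 43.4% with more 3p, so a call by itself does not set the cluster apart. The median size of the log2 difference was 8.43 over the 6 hairpins and 4.05 over all hairpins tested.

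Mir17 and Mir18 kept a sizeable 3p miR. In Mir17 the 5p miR had 10641, 12162 and 19499 reads against 723, 686 and 961 reads of the 3p miR in replicates 1, 2 and 3, a log2 difference of 4.12 ± 0.15 (SE, edgeR, adjusted p = 1.3e-12). In Mir18 the 5p miR had 1278, 1363 and 2078 reads against 271, 237 and 316 reads of the 3p miR, a log2 difference of 2.49 ± 0.17 (SE, edgeR, adjusted p = 2.1e-09). No library's 5p count overlapped the 3p counts in either hairpin. The 5p share of the hairpin's miR reads was 93.6%, 94.7% and 95.3% for Mir17 and 82.5%, 85.2% and 86.8% for Mir18, both highest in replicate 3.

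Mir20a was nearly all 5p. It had 19845, 23959 and 37045 5p reads against 34, 24 and 37 3p reads, a log2 difference of 9.70 ± 0.21 (SE, edgeR, adjusted p = 4.6e-15). The 5p share was 99.8%, 99.9% and 99.9%. Although miR-17-5p and miR-20a-5p carry the same seed, miR-17-3p had 53.0, 54.7 and 63.3 RPMR where miR-20a-3p had 2.49, 1.91 and 2.44 RPMR, a ratio of 21.3, 28.6 and 26.0 in replicates 1, 2 and 3.

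Mir19a was the most one-sided of the 6 hairpins, followed by Mir20a and Mir19b-1. It had 0, 1 and 0 reads on the 5p arm against 2771, 2300 and 3115 reads on the 3p arm, a fitted log2 difference of −12.54 ± 0.36 (SE, edgeR, adjusted p = 8.9e-14). From the counts the 3p miR was 8186 times the 5p miR, with an exact (Clopper-Pearson) 95% interval of 1469 to 323369 that covers counting error only. Of the 373 hairpins tested 2.14% had a difference at least as large. Mir19b-1 had 7, 7 and 4 reads on the 5p arm against 3800, 3606.5 and 5039.5 reads counted at chromosome 14 on the 3p arm, a log2 difference of −9.39 ± 0.25 (SE, edgeR, adjusted p = 4.7e-14).

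Mir92-1 also favoured its 3p arm. Its 5p miR had 102, 97 and 132 reads against 20555.5, 16128.5 and 22386.5 reads counted at chromosome 14 for its 3p miR, a log2 difference of −7.48 ± 0.17 (SE, edgeR, adjusted p = 5.4e-15). The 3p counts of Mir19b-1 and Mir92-1 include reads that the authors divided between chromosome 14 and chromosome X, which does not apply to the 5p counts. For miR-92a-3p the reads counted at chromosome 14 in excess of those at chromosome X numbered 22839, which alone is 69.0 times the 5p count. For Mir19b-1 no such excess existed, and its 5p against 3p difference rests on the authors' even division.

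Sequence features of the arms were set beside these values as a description. Of the 8 member miRs at or above 10 RPMR, 5 begin with U, or 62.5%, against 43.9% of the 239 mature names at that level with a RefSeq sequence. In 4 of the 5 chromosome 14 hairpins with sequences on both arms, the arm with more A or U among its first 4 bases was the more abundant one, and this held for 66.9% of the 154 hairpins in which the arms differ. The exception was Mir19b-1, whose 5p miR begins AGUU and whose 3p miR begins UGUG.

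The shared miRs showed how far the loci could be separated. The miR windows of miR-19b-3p and miR-92a-3p reach 3 bases past the miR on each side, in capitals here. Within the windows the chromosome 14 and chromosome X copies differ only in these flanks, and some flank bases are the same in both (RefSeq hairpins, GRCm38.p6).
miR-19b-3p window, chromosome 14: UGCugugcaaauccaugcaaaacugaCUG
miR-19b-3p window, chromosome X: GGCugugcaaauccaugcaaaacugaUUG
miR-92a-3p window, chromosome 14: UGGuauugcacuugucccggccugUUG
miR-92a-3p window, chromosome X: AAGuauugcacuugucccggccugAGG

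For miR-19b-3p the copies could not be told apart. Replicates 1, 2 and 3 had 3800, 3606.5 and 5039.5 reads counted at chromosome 14, against 3804, 3604.5 and 5053.5 reads at chromosome X. The chromosome 14 share was 50.0% ± 0.0416 (SD, n = 3), the value that an even division of every read gives.

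For miR-92a-3p more reads were counted at chromosome 14 than at chromosome X in every library. It had 20555.5, 16128.5 and 22386.5 reads at chromosome 14, against 13259.5, 9526.5 and 13445.5 reads at chromosome X. These are 1508, 1286 and 1475 RPMR at chromosome 14, against 973, 759 and 886 RPMR at chromosome X. The chromosome 14 share, which includes the evenly divided reads, was 62.0% ± 1.10 (SD, n = 3). A surplus at one locus requires reads that matched that locus and not the other. At least 550 ± 34.0 RPMR (SD, n = 3) of miR-92a-3p thus matched the chromosome 14 flank alone, and the rest remains unassigned. Whether the flank bases of these reads were all copied from chromosome 14 was not tested.

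The other products of the chromosome X cluster were close to absent. miR-106a-5p, miR-18b-5p and miR-20b-5p had 13, 3 and 1 reads, and together averaged 0.402 ± 0.166 RPMR (SD, n = 3). miR-363-3p, miR-92a-2-5p and miR-19b-2-5p have a position in the deposited windows but no row in the read table, whose rows sum to the stated window totals, and no value is given for them. The miR-19b-3p and miR-92a-3p reads counted at chromosome X summed to 1252, 1047 and 1219 RPMR, which includes the divided reads of both miRs.

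The same-seed comparison asked how the members stand beside other miRs with their seed, over 204 pairs of mature names in the whole table. All 15 member pairs passed edgeR's quasi-likelihood test with Benjamini-Hochberg adjustment, 12 with the first-named member higher and 3 with it lower. Of all 204 pairs 96.6% passed, 64.7% with the first-named miR higher and 31.9% with it lower, so passing is close to the rule for any pair.

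In the miR-17 family the chromosome 14 members made up most of the reads. miR-17-5p and miR-20a-5p together were 63.3%, 65.6% and 66.2% of the reads with the seed AAAGUGC, or 65.1% ± 1.53 (SD, n = 3). miR-20a-5p was 42.7% ± 1.30 of the family, miR-93-5p 29.5% ± 1.05, miR-17-5p 22.4% ± 0.426 and miR-106b-5p 5.46% ± 0.521. miR-93-5p and miR-106b-5p come from mir-106b-25, a cluster inside an intron of Mcm7, and miR-93-5p stood between the chromosome 14 members.

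miR-17-5p was lower than miR-20a-5p by 0.93 ± 0.06 on the log2 scale (SE, edgeR, adjusted p = 8.0e-06), and the ratio of miR-20a-5p to miR-17-5p was 1.87, 1.97 and 1.90 in replicates 1, 2 and 3. miR-17-5p was also lower than miR-93-5p, with 781, 969 and 1285 RPMR against 1083, 1268 and 1620 RPMR, a log2 difference of −0.40 ± 0.06 (SE, edgeR, adjusted p = 0.00095). miR-20a-5p was higher than miR-93-5p in every library, by 0.54 ± 0.06 on the log2 scale (SE, edgeR, adjusted p = 0.00024). By read counts the order miR-20a-5p, miR-93-5p, miR-17-5p was therefore the same in all 3 libraries, although the ranges of neighbours overlapped across libraries. Both members were higher than miR-106b-5p, which had 211, 239 and 278 RPMR, with log2 differences of 2.04 ± 0.09 for miR-17-5p (SE, edgeR, adjusted p = 1.1e-06) and 2.97 ± 0.09 for miR-20a-5p (SE, edgeR, adjusted p = 2.2e-07).

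Against the chromosome X paralogs the members were far higher. miR-17-5p had 42302 reads against 13 of miR-106a-5p, which differs from it at U10A, a ratio of 3254 with an exact 95% counting interval of 1903 to 6112. miR-20a-5p had 80849 reads against a single read of miR-20b-5p, and miR-18a-5p had 4719 reads against 3 of miR-18b-5p, a ratio of 1573 with an exact 95% counting interval of 538 to 7630. miR-18a-5p was thereby 99.9% of the reads with the seed AAGGUGC.

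In the miR-92 family, miR-92a-3p and miR-25-3p were close. miR-92a-3p had 2481, 2045 and 2361 RPMR against 1367, 1811 and 2073 RPMR of miR-25-3p, from mir-106b-25, ratios of 1.81, 1.13 and 1.14 in replicates 1, 2 and 3. The log2 difference was 0.41 ± 0.14 (SE, edgeR, adjusted p = 0.033). It was 0.18 ± 0.05 without replicate 1 (adjusted p = 0.000996), and without replicate 3 it was 0.52 ± 0.22 and did not pass (adjusted p = 0.11). miR-92a-3p was 62.3%, 51.0% and 51.1% of the reads with the seed AUUGCAC in replicates 1, 2 and 3.

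The rarer members of that family were well below miR-92a-3p. miR-32-5p averaged 137 ± 27.6 RPMR and miR-92b-3p averaged 23.5 ± 1.53 RPMR (SD, n = 3 each), log2 differences of 4.08 ± 0.15 and 6.61 ± 0.08 (SE). miR-19a-3p was lower than miR-19b-3p summed over both of its loci, with 203, 183 and 205 RPMR against 558, 575 and 665 RPMR, a log2 difference of −1.60 ± 0.08 (SE, edgeR, adjusted p = 2.6e-06). The part of miR-19b-3p counted at chromosome 14 after even division was 279, 287 and 332 RPMR, also above miR-19a-3p in each library. miR-19b-3p was 75.2% ± 1.66 of the reads with the seed GUGCAAA (SD, n = 3), and no other mature name with a RefSeq sequence carried that seed.

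**Figure D2:**
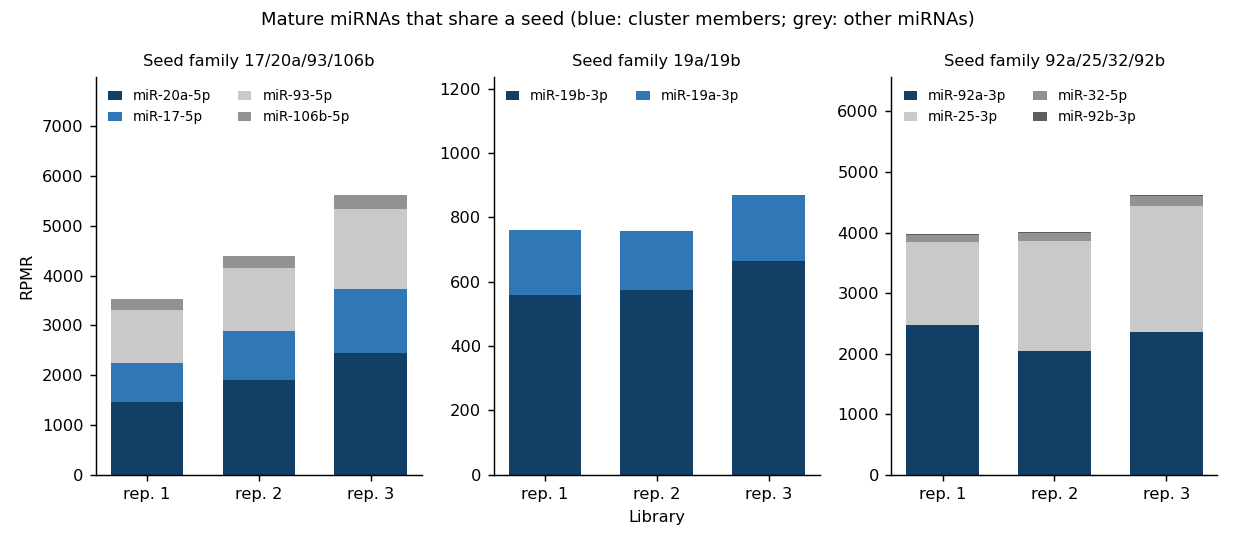
Summed RPMR of the miRs that share a seed in each library, on linear axes that start at 0, with cluster members in blue and other miRs in grey. The members are 63.3% to 66.2% of the miR-17 family, all of the miR-19 family and 51.0% to 62.3% of the miR-92 family.

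As a whole, the 12 chromosome 14 miR windows, at 5067 ± 811 RPMR, stood above the 6 miR windows of mir-106b-25, at 3562 ± 668 RPMR (SD, n = 3 each). The sums were 4403, 4828 and 5971 RPMR on chromosome 14, against 2891, 3567 and 4227 RPMR in mir-106b-25. The chromosome 14 sum was higher in each library, and without the miRs shared with chromosome X it was 2617, 3255 and 4164 RPMR, lower than mir-106b-25 in each library. That smaller sum leaves out all of miR-92a-3p, also its surplus at chromosome 14 of 535, 526 and 589 RPMR in replicates 1, 2 and 3. With this surplus counted, the chromosome 14 sum was again the higher in each library.

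The members did not vary together across libraries. The abundant 5p miRs, and also miR-17-3p and miR-19b-3p, were highest in replicate 3 and lowest in replicate 1. The ratio of replicate 3 to replicate 1 was 1.68 for miR-20a-5p, 1.65 for miR-17-5p and 1.46 for miR-18a-5p. The same ratio was 1.19 for miR-17-3p, 1.05 for miR-18a-3p, 1.01 for miR-19a-3p, 1.19 for miR-19b-3p and 0.952 for miR-92a-3p. Its median over the 281 mature names with a mean of at least 10 RPMR was 1.02, and 1.78% of these names had a ratio at least as large as that of miR-20a-5p.

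Of the 8 member names at or above 10 RPMR, 7 were highest in replicate 3, against 38.4% of the 281 names. The miRs of mir-106b-25 shared the pattern of the 5p members in part, with ratios of 1.50 for miR-93-5p, 1.32 for miR-106b-5p and 1.52 for miR-25-3p. Its other miRs at or above 10 RPMR, miR-106b-3p and miR-25-5p, had ratios of 1.12 and 0.933. The arms of one hairpin moved unequally. In the 3 hairpins with more 5p the 5p to 3p ratio was lowest in replicate 1, at 14.7, 17.7 and 20.3 for Mir17, 4.72, 5.75 and 6.58 for Mir18, and 584, 998 and 1001 for Mir20a. Of those with more 3p, Mir92-1 was also lowest in replicate 1 (0.00496, 0.00601 and 0.00590). Mir19b-1 was lowest in replicate 3 (0.00184, 0.00194 and 0.000794), and Mir19a had a single 5p read.

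Replicate 1 was also the highest or the lowest in some other measures. Its share of mapped reads in windows was the lowest, at 73.1% against 83.0% and 81.9% in replicates 2 and 3. Its miR-143-3p level was the highest, at 56142 RPMR against 50126 and 46298 RPMR, and its miR-126a-3p level the lowest, at 115 RPMR against 147 and 144 RPMR. The part of these differences in the member values was not tested.

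**Figure D3:**
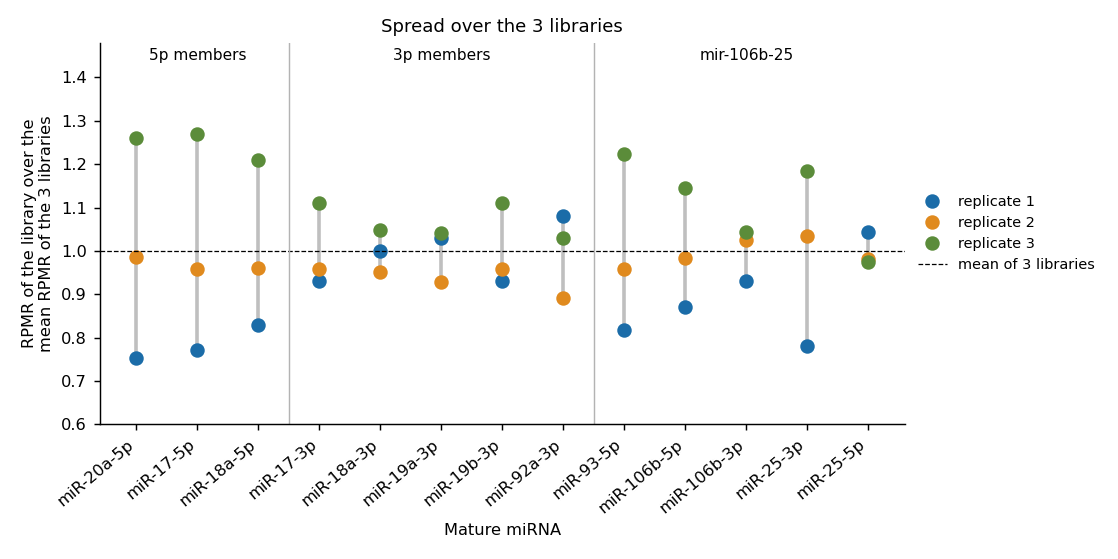
Level of each miR in each library divided by its mean over the 3 libraries, on a linear axis, for the 5p members, the 3p members and the miRs of mir-106b-25 at or above 10 RPMR. The 5p members, miR-17-3p, miR-19b-3p, miR-93-5p, miR-106b-5p, miR-106b-3p and miR-25-3p have replicate 3 on top and replicate 1 at the bottom. miR-25-5p has replicate 1 on top, and miR-18a-3p, miR-19a-3p and miR-92a-3p have replicate 2 at the bottom.

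Among miRs outside the members, those whose levels most resembled miR-20a-5p were chosen by the mean absolute log2 ratio of RPMR over the 3 libraries. The nearest was miR-25-3p, at 1367, 1811 and 2073 RPMR (mean absolute log2 ratio 0.13). miR-31-5p came next, at 1912, 1653 and 2162 RPMR (0.26), and then miR-26b-5p, at 2049, 1757 and 1910 RPMR (0.32). Of these 3, miR-25-3p also had its lowest level in replicate 1 and its highest in replicate 3, and the other two had their lowest in replicate 2. This likeness is a description over 3 libraries.

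The moRs of the cluster were rare in every library. Of its 14 moR windows, 0 exceeded 1 RPMR on average, 10 held at least 1 read and 6 had reads in all 3 libraries. Of the 1295 moR windows listed in all, 34 exceeded 1 RPMR, 288 held at least 1 read and 127 had reads in all 3 libraries. The 12 chromosome 14 moR windows held 22, 30 and 35 reads in replicates 1, 2 and 3, together 87 reads, or 2.10 ± 0.426 RPMR (SD, n = 3). The 3-read limit of counting is 0.198 to 0.239 RPMR in a single library, so most of these windows cannot be ranked against each other.

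The 5 moR windows of 5p arms that held reads are shown up to the 5′ end of the annotated hairpin. The first bases of the miR are in capitals (RefSeq hairpins, GRCm38.p6, plus strand).
moR-17-5p: gucagaauaauguCAAA
moR-18a-5p: ugcgugcuuuuuguucUAAG
moR-19a-5p: gcagcccucuguUAGU
moR-20a-5p: gugugaugugacagcuucuguagcacUAAA
moR-19b-1-5p: cacuggucuaugguuAGUU

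The windows reach 35 bases out from the miR, past the annotated hairpin end in each of these 5 cases. moR-20a-5p has the longest stretch inside its annotated hairpin, 30 bases, and moR-19a-5p the shortest, 16 bases. Reads beyond the annotated end also counted as moR, so these lengths describe the annotation.

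moR-20a-5p, next to the most abundant 5p miR, had 8, 9 and 10 reads in replicates 1, 2 and 3, or 0.654 ± 0.0654 RPMR (SD, n = 3), and ranked 53 among the 1295 moR windows. moR-18a-5p had 5, 5 and 10 reads (0.475 ± 0.16 RPMR, rank 61), although miR-20a-5p had 15.5, 17.6 and 17.8 times the reads of miR-18a-5p in replicates 1, 2 and 3. moR-19a-5p had 1, 7 and 4 reads (0.298 ± 0.244 RPMR, rank 76). These were the only members with more than 10 reads.

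The remaining moRs were at the limit of counting. moR-19b-1-5p had 2, 3 and 3 reads, moR-17-5p had 2, 1 and 4 reads, and moR-19b-3p at chromosome 14 had 3, 2 and 1 reads. moR-17-3p, moR-20a-3p, moR-92a-3p at chromosome 14 and moR-18a-3p had 2, 2, 2 and 1 reads over the 3 libraries. moR-19a-3p, moR-92a-1-5p and the chromosome X windows of moR-19b-3p and moR-92a-3p had 0 reads, which allows up to 3 reads each. The windows of moR-19b-3p and moR-92a-1-5p overlap by 14 bases between the hairpins.

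**Figure D4:**
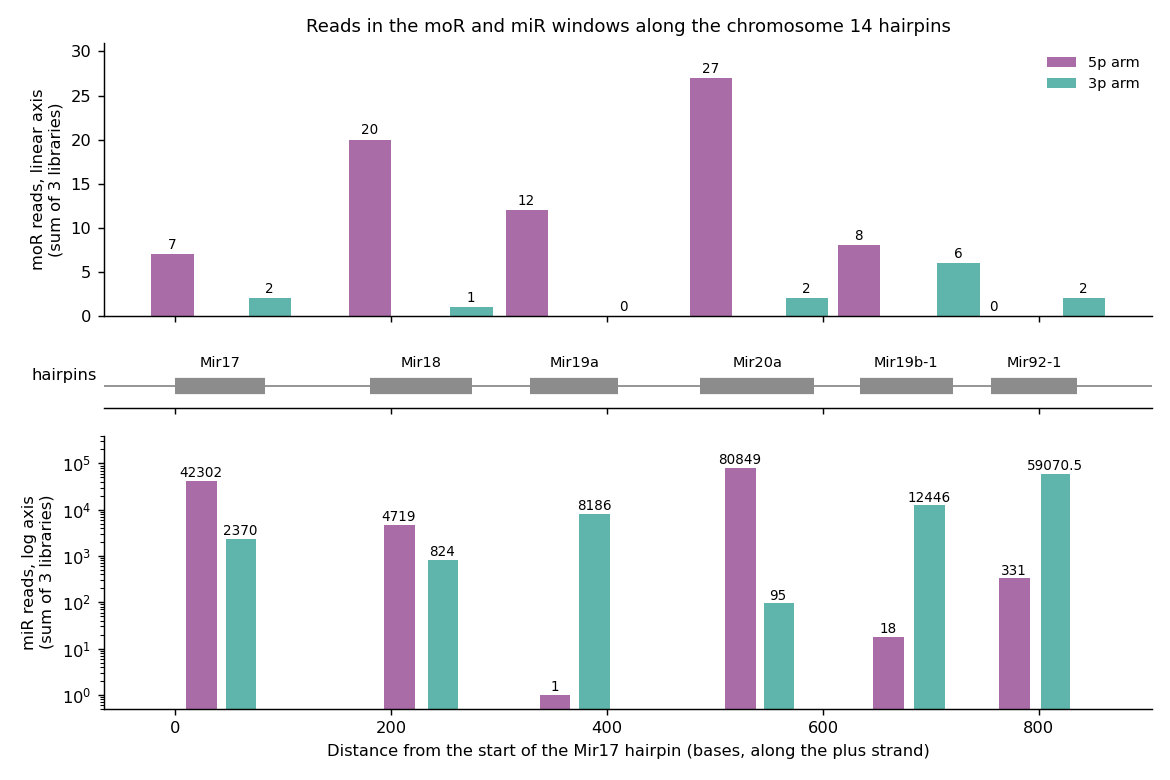
Reads of the moR windows (upper panel, linear axis) and of the miR windows (lower panel, log axis) along the 6 chromosome 14 hairpins, as sums over 3 libraries, against the distance in bases from the start of the Mir17 hairpin. Bars span the counting windows, purple for the 5p and green for the 3p arm, with the read sum above each. The moR reads peak on the 5p arms of Mir20a (27 reads) and Mir18 (20 reads), while the miR reads peak on the 5p arm of Mir20a and the 3p arm of Mir92-1.

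Each moR with at least 1 read was also set against its own arm's miR, library by library. Member arms without a moR read, which are moR-19a-3p, moR-92a-1-5p and the chromosome X windows, were not in this test. The shares and medians below therefore leave out arms whose moR was absent. Of the 10 member arms tested, 8 had less moR, 1 had more moR and 1 did not pass, by edgeR's quasi-likelihood test with Benjamini-Hochberg adjustment over 243 arms. Of all 243 arms 97.5% were called, 91.8% with less moR and 5.76% with more moR. The median log2 difference of moR over miR was −9.59 for the 10 member arms and −8.67 for all arms tested.

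On the abundant arms the moR was a trace of its miR. moR-20a-5p had 27 reads against 80849 of miR-20a-5p, a log2 difference of −11.51 ± 0.39 (SE, edgeR, adjusted p = 2.4e-110). moR-17-5p had 7 reads against 42302 of miR-17-5p, a log2 difference of −12.49 ± 0.41 (SE, edgeR, adjusted p = 8.4e-114). moR-18a-5p had 20 reads against 4719 of miR-18a-5p, a log2 difference of −7.87 ± 0.32 (SE, edgeR, adjusted p = 1.2e-86). The difference was thus smaller for Mir18 than for Mir17 or Mir20a, and that contrast between hairpins was not tested. On the tested 3p arms the log2 differences lay between −14.60 for moR-92a-3p at chromosome 14 and −5.33 for moR-20a-3p.

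Mir19a had the reverse on its 5p arm. moR-19a-5p had 1, 7 and 4 reads against 0, 1 and 0 reads of miR-19a-5p, 12 against 1 over the 3 libraries. The ratio of the sums was 12.0 with an exact 95% counting interval of 1.78 to 513, and the fitted log2 difference was 3.17 ± 1.37 (SE, edgeR, adjusted p = 0.022). moR was higher in 3 of 3 libraries. The arm reached the minimum of 10 reads only through its moR reads, and arms without a moR read were not tested. The call and the interval therefore describe these counts and are no independent support for more moR. The call was lost when arms with fewer reads entered the adjustment (adjusted p = 0.055), and without replicate 2 or without replicate 3 the arm fell under the minimum of 10 reads.

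On the 5p arm of Mir19b-1, moR-19b-1-5p had 2, 3 and 3 reads against 7, 7 and 4 reads of miR-19b-1-5p. The log2 difference of −1.13 ± 0.80 (SE, edgeR, adjusted p = 0.16) did not pass. Both miR-19 hairpins thus had an almost empty 5p miR window, while their 3p miR windows held 8186 and 12446 reads. Their 5p moRs shared no direction, with more reads than the miR in Mir19a and fewer in Mir19b-1 in each library.

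Read per hairpin, Mir18 left the most moR for its miR. It had 3789 moR reads per 1000000 miR reads of the hairpin, followed by Mir19a with 1466, Mir19b-1 with 1123, Mir20a with 358, Mir17 with 201 and Mir92-1 with 33.7. These rest on 21, 12, 14, 29, 9 and 2 moR reads, and the miR reads of Mir19b-1 and Mir92-1 include reads divided with chromosome X. Without replicate 2 Mir19a had 849, below Mir19b-1 with 1017, and without replicate 1 Mir92-1 had 51.6. The median over the 195 hairpins with at least 1000 miR reads was 165, with 11.3% of them at or above Mir18 and 65.1% at or above Mir92-1. The 6 hairpins pooled gave 412 moR reads per 1000000 miR reads, and the 3 hairpins of mir-106b-25 gave 169.

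The arm of the moRs was tested as for the miRs, within libraries over 81 hairpins. Mir18, Mir19a and Mir20a had more 5p than 3p moR, and Mir19b-1 did not pass. With edgeR's quasi-likelihood test and Benjamini-Hochberg adjustment 92.6% of the 81 hairpins were called, 81.5% with more 5p moR, which leaves 3 of 4 member hairpins near the background. Mir17 (7 against 2 reads) and Mir92-1 (0 against 2 reads) had too few reads to be tested.

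The counts behind these calls were small. Mir20a had 27 5p against 2 3p moR reads, a log2 difference of 3.54 ± 0.93 (SE, edgeR, adjusted p = 0.00039). Mir18 had 20 against 1, a log2 difference of 3.91 ± 1.14 (SE, edgeR, adjusted p = 0.0012). Mir19a had 12 5p reads against 0 3p reads, at least 4-fold more when 0 is set to 3 reads over all libraries (edgeR, adjusted p = 0.0039). Mir19b-1 had 8 against 6, a log2 difference of 0.40 ± 0.99 (SE, edgeR, adjusted p = 0.70). Without replicate 3 none of the 3 member hairpins then tested was called by edgeR, and 1 of them had an unadjusted p under 0.05. With DESeq2 on all 3 libraries Mir19a was not called (adjusted p = 0.0501).

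Over the chromosome 14 hairpins 74 of 87 moR reads came from 5p arms, 85.1% with an exact (Clopper-Pearson) 95% interval of 75.8% to 91.8% for counting error. The share was 81.8%, 83.3% and 88.6% in replicates 1, 2 and 3. Over the pooled reads of all other moRs it was 86.0%, a value weighted toward the moRs with the most reads. The arm of the moR did not follow the arm of the miR in every hairpin. In Mir19a the moR reads lay on the 5p arm and all but 1 of 8187 miR reads on the 3p arm, whereas in Mir18 and Mir20a both kinds were mostly 5p.

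The moR windows of the copies lie largely outside the shared miR. moR-19b-3p had 6 reads at chromosome 14 against 0 at chromosome X, and moR-92a-3p had 2 reads at chromosome 14 against 0 at chromosome X. Both pairs stayed under the 10 reads required for a test. Among the 14 pairs of copies in the table with enough reads, 78.6% were called by edgeR's quasi-likelihood test with Benjamini-Hochberg adjustment, 42.9% with the first-listed copy higher and 35.7% with it lower.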

How the data were processed

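Small RNA was measured in 3 AoSMC libraries, with replicate numbers taken from their titles. The authors mapped inserts longer than 13 bases to mm10 with Bowtie, whose version is not given in the sources used here, without mismatches and at up to 5 places, and divided a read evenly between precursors. A read inside the miR widened by 3 bp counted as miR, and one between 3 bp inside and 35 bp outside its outer end as moR. The deposited values per window are expected counts (divided reads need not be whole, and 96.1% of values were) and RPMR, an RPM value per 1000000 window reads. Deposited library totals and window positions (1-based) were also used. Divided reads and the 3 bp margin can shift counts between copies, and intervals cover counting error only. Comparisons between different miRs or moRs are of read counts. Whether each sequence enters a library equally well was not tested.

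Arms and hairpins came from GENCODE M21, and names were matched for all 1295 miR windows. Counts were rounded and tested with edgeR 4.0.16 (R 4.3.3), with the library as block because both values of a pair come from one library, the window total as library size, at least 10 reads per pair, and Benjamini-Hochberg adjusted p under 0.05. A printed SE is the log2 difference divided by the square root of the quasi-likelihood F statistic. Seed pairs were summed by mature name. The comparison of moR with miR took only arms with at least 1 moR read. The scripts were tested on simulated data. Folds against 0 reads used a floor of 3 reads. Alternatives were DESeq2 1.42.0, TMM factors, at least 30 reads, no minimum beyond 1 read, no replicate block, reads per 1000000 mapped reads and leaving out each library. Python 3.11.15, SciPy 1.17.1, numpy 2.4.6, pandas 2.3.3 and matplotlib 3.10.9 were used.

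Named miRs were all members, the miRs with their seed or in their paralog clusters, and the 3 miRs outside the members nearest in level to the most abundant member window. Members, lists and tests were chosen with earlier results of these data known.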

Additional observations from a re-analysis of the deposited data

How the results depend on the processing

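No member comparison turned its direction under an alternative, but the moR arms of Mir19b-1, not called with all libraries, were level without replicate 3 (log2 difference 0.00). All 6 arm calls of the miRs held throughout, with 6 called under DESeq2, TMM factors, either minimum and each left-out library. Leaving out the replicate block, which reflects that both values of a pair come from one library, called 6 member hairpins for miR arms, 9 member arms for moR over miR, 3 hairpins for moR arms and 15 seed pairs, the same counts as with the block. Leaving out each library gave 0 to 3 called member hairpins for moR arms (0 without replicate 3, with 3 tested), 8 to 9 arms for moR over miR and 14 to 15 seed pairs. The seed pair lost was miR-92a-3p over miR-25-3p, with an adjusted p of 0.078 under DESeq2, 0.063 with no minimum and 0.11 without replicate 3. Mir18 and Mir20a lost their moR arm calls without replicate 3 (edgeR, adjusted p of 0.089 and 0.057). A minimum of 30 reads left no member hairpin for the moR arm test. Over the copies of the whole table, 11 of 14 pairs were called, with 7 at a minimum of 30 reads, 6 with no minimum and 4 to 8 with a library left out. The summed level of the chromosome 14 miR windows was 4040 reads per 1000000 mapped reads, 3345 RPMR without the windows shared with chromosome X, and 4616 to 5399 RPMR with a library left out. Single window levels moved by more than 1 SD in 11 cases, all per mapped reads, and stayed within it in 129. Mapped reads outnumber window reads in each library, so that unit by itself lowers every level above 0. Leaving out each library, added after seeing the data, moved the moR reads per miR read of a hairpin by over 1.5-fold in 2 cases and by less in 16. The causes of the other changes were not tested. A moR window of 3 reads or fewer cannot be separated from 0 at this depth.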
